A study of Mus musculus with 6 samples.

Results

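Transcripts of 10 Kupffer cell and macrophage genes were followed in the liver of aged mice with and without *Sirt7*, which encodes a nuclear sirtuin deacylase. The genes were taken by name and not by their measured values, though with earlier results of these data known. They are *Clec4f*, *Vsig4*, *Cd5l*, *Marco*, *Timd4*, *Adgre1*, *Csf1r*, *Cd68*, *C1qa* and *Lyz2*, 10 of the 54115 genes to which the quantified transcripts belong. All 10 passed the filter on low counts and belong to the 12524 genes that were tested. Whole liver was taken from 3 WT and 3 *Sirt7* KO mice. All 6 mice were male, 24 months old and fasted for 16 h before collection, so fasting and age were shared by both groups. The KO line came from another laboratory, was backcrossed to C57BL/6J, and was bred from heterozygous parents, so the deletion was not limited to hepatocytes or macrophages. RNA was converted to cDNA from 1 ng of total RNA with a SMART-seq kit and sequenced as single-end reads without strand information. No cells were sorted. A transcript of a macrophage gene is therefore measured against the RNA of the whole organ, and fewer cells of a type and less RNA per cell cannot be told apart.

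Kupffer cells are the resident macrophages of the liver. They sit in the sinusoids, where they take up bacteria, dying cells, old erythrocytes and modified lipoproteins from portal blood. Their maintenance depends on signalling through the CSF1 receptor, and their lineage on the transcription factor PU.1, encoded by *Spi1*. Resident cells in the mouse are recognised by surface proteins such as the lectin CLEC4F, the complement receptor VSIG4 and the phosphatidylserine receptor TIM4, which newly recruited macrophages lack or gain only later. Other genes on the list, such as *Adgre1*, *Csf1r*, *Cd68* and *Lyz2*, are shared with monocytes and macrophages of other origin.

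The libraries held 9994860 to 13424776 reads on transcripts. Levels are given as CPM, the reads of a gene scaled to the depth of its library. *Sirt7* itself had 55.2, 45.5 and 47.3 CPM in WT mice 1, 2 and 3 and 28.6, 41.7 and 40.8 CPM in KO mice 1, 2 and 3. All KO mice lay below all WT mice, but the difference was not significant (log2 fold change -0.41, SE 0.18, edgeR adjusted p = 0.423). Which exons the deletion removes is not given in the sources used here, and reads from exons that are kept still count for the gene, so these levels do not check the genotype. At an adjusted p under 0.05 with a fold change over 1.5, edgeR called 1 of the 12524 genes. A pair of libraries stood apart by genes chosen after their values were seen. KO mouse 3 had 31 to 209 reads of the kidney genes *Kap*, *Umod*, *Slc34a1*, *Slc22a12* and *Miox*, which had 0 to 4 reads in the other livers. WT mouse 1 had 187 to 1814 reads of *Cyp2b9*, *Cyp2a4* and *Sult2a7*, known as female-biased liver genes, against 0 to 135 in the other livers. Each of the 10 macrophage genes had reads in every library, from 2 to 2148. *Clec4f*, which in the mouse is almost restricted to Kupffer cells, had 175 to 518 reads, so Kupffer cell RNA was represented in all 6 livers. The hepatocyte markers *Alb*, *Apoa1*, *Serpina1a* and *Ttr* were abundant in every library, and the 10 hepatocyte markers together made up 53898 to 68375 CPM.

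None of the 10 genes differed between the genotypes beyond the spread between mice. By edgeR, 0 of 10 were called higher or lower in *Sirt7* KO liver, where 0.00798% of all tested genes were called higher and 0% lower. At an unadjusted p under 0.05 it was also 0 of 10, against 11.3% of all tested genes (6.54% higher and 4.78% lower), and DESeq2 called 0 as well, where it called 1.77% of the genes with an adjusted p, or 1.87% with offsets for transcript length. In all 10 genes the ranges of WT and KO mice overlapped, whereas 16.8% of tested genes had separate ranges (8.74% with all KO mice above and 8.09% with all KO mice below). The log2 fold change was above 0 in 6 of the 10 genes and in 49.3% of tested genes. Its median was 0.11 over the 10 genes and -0.01 over all tested genes. The intervals were wide, so the data set no narrow bound. *Clec4f* had a 95% interval of -0.18 to 1.37 on the log2 scale, and *Timd4* one of -2.79 to 0.89. Most of the 10 genes shared a difference from liver to liver within each genotype. WT mouse 3 was the highest WT liver in 10 of 10 (32.3% of tested genes), and KO mice ran in the order 1, 3, 2 in 8 of 10 (18.7% of tested genes), with *Marco* and *Timd4* as the exceptions. *Marco* had a single large value in WT mouse 3.

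**Figure D1:**
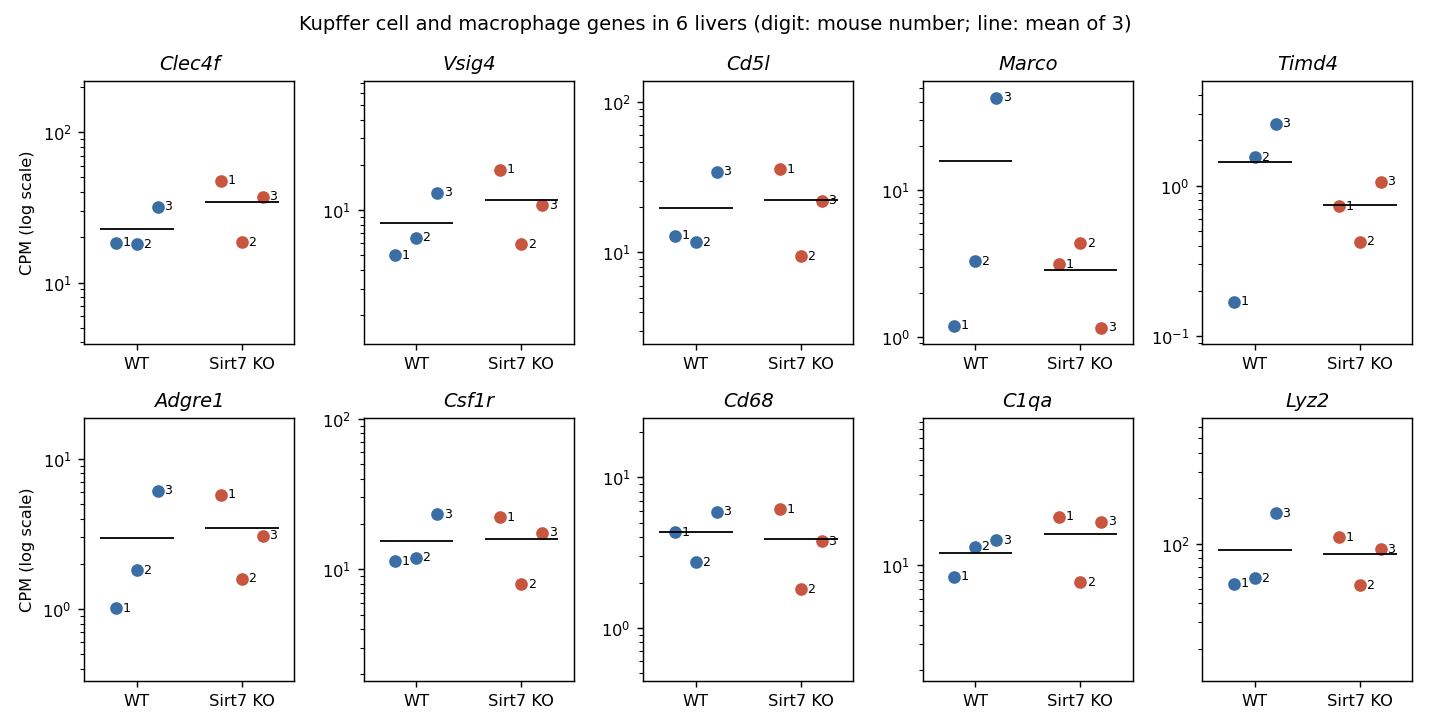
Expression of the 10 genes in each liver, with CPM on a log axis, WT mice in blue and *Sirt7* KO mice in red; digits are mouse numbers and lines are means of 3 mice. WT mouse 3 is the highest WT liver in all 10 panels, KO mouse 2 is the lowest KO liver in all panels but that of *Marco*, and the 42.8 CPM of *Marco* in WT mouse 3 stands 9.86 times above the next liver.

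Promoters are shown for 4 genes of surface and secreted proteins typical of Kupffer cells. *Vsig4*, *Cd5l* and *Clec4f* followed a similar profile from liver to liver, and *Marco* departed from it in WT mouse 3 and in the KO mice. Each sequence is the RefSeq promoter of build GRCm38.p6, 300 bases from 250 before the start site, written 5′ to 3′ on the strand of the gene. Capitals mark GAGGAA or its reverse complement TTCCTC, the core of the site that PU.1 recognises.
Marco promoter, chr1:120504975-120505274, minus strand: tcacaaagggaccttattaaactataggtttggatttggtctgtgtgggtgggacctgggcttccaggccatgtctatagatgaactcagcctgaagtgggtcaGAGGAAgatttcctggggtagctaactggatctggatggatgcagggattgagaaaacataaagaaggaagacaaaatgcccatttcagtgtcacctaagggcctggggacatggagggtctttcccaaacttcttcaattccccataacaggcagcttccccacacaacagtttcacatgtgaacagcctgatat
Vsig4 promoter, chrX:96293389-96293688, minus strand: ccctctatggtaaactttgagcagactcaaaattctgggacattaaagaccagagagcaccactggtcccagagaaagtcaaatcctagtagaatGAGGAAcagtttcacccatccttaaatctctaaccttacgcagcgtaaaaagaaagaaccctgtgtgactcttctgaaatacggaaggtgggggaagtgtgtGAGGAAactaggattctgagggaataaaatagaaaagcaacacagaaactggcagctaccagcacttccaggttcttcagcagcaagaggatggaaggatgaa
Cd5l promoter, chr3:87357631-87357930, plus strand: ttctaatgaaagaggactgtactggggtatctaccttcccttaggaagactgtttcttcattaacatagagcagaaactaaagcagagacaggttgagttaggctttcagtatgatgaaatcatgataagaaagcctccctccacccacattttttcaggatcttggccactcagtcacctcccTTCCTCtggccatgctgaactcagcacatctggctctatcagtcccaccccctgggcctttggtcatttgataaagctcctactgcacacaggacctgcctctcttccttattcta
Clec4f promoter, chr6:83656067-83656366, minus strand: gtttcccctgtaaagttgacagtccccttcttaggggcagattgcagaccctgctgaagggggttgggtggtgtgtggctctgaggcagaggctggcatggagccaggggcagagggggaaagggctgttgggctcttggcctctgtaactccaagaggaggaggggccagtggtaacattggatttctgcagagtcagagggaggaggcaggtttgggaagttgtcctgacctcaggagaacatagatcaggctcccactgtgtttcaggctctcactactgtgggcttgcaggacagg
Of the 10 genes, 7 had a promoter in the RefSeq table, and 4 of these 7 (*Cd5l*, *Cd68*, *Marco* and *Vsig4*) held GAGGAA on either strand, compared with 28.3% of the 32851 promoters of the same length. The 6 bases begin at -146 in *Marco*, at -155 and -53 in *Vsig4*, at -66 in *Cd5l*, and at -225 and 30 in *Cd68*. Bases before the start site are negative, and those from the start site on are counted as positive, with no position 0. The TATA box core TATAAA, searched on both strands, was in 0 of the 7 promoters and in 13.6% of all promoters. A match of these letters is a description of the window and does not show that a factor was bound.

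Among the genes for surface receptors of resident Kupffer cells, *Clec4f* encodes a galactose-binding C-type lectin that in the mouse is almost restricted to Kupffer cells. The gene (ENSMUSG00000014542.3) lies on chromosome 6, from 83644542 to 83656187 on the minus strand of GRCm38. *Clec4f* measured 18.5, 18.0 and 32.0 CPM in WT mice 1, 2 and 3, and 47.4, 18.5 and 37.3 CPM in KO mice 1, 2 and 3. KO mice 1 and 3 lay above every WT mouse, while KO mouse 2 stood at the level of WT mice 1 and 2. The means were 22.8 ± 7.94 CPM in WT and 34.4 ± 14.7 CPM in KO liver (SD, n = 3 each), a log2 fold change of 0.59 (SE 0.34) that did not pass the test (edgeR adjusted p = 0.568). Without KO mouse 2 the genotypes did not overlap and the log2 fold change was 0.89 (edgeR adjusted p = 0.515), and without WT mouse 3 they were barely separate, with 0.92 (edgeR adjusted p = 0.469). Over all alternatives tried the adjusted p of *Clec4f* ran from 0.107 to 0.823.

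*Vsig4* encodes a receptor of the immunoglobulin superfamily that binds complement C3b and clears opsonised particles from blood. It lies on chromosome X, from 96247203 to 96293438 on the minus strand (ENSMUSG00000044206.3). In WT mice *Vsig4* measured 4.996, 6.53 and 13.02 CPM, and in KO mice 18.5, 5.93 and 10.8 CPM. The liver order was nearly that of *Clec4f*, with KO mouse 1 highest and KO mouse 2 among the low WT livers. The difference was smaller than the spread between mice (8.18 ± 4.26 CPM in WT and 11.7 ± 6.34 CPM in KO, log2 fold change 0.52, SE 0.45, edgeR adjusted p = 0.717).

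*Timd4* encodes TIM4, a receptor for phosphatidylserine on dying cells and a marker of long-lived resident macrophages. It was the least abundant of the 10 genes, on chromosome 11 from 46810800 to 46844332 on the plus strand (ENSMUSG00000055546.6). There were 2, 17 and 35 reads of *Timd4* in the WT libraries and 8, 4 and 11 reads in the KO libraries. These are 0.169, 1.54 and 2.59 CPM in WT mice and 0.733, 0.424 and 1.06 CPM in KO mice. WT mice 2 and 3 lay above all KO mice and WT mouse 1 below them. The mean was 1.43 ± 1.21 CPM in WT and 0.739 ± 0.318 CPM in KO liver, with a log2 fold change of -0.95 (SE 0.81, edgeR adjusted p = 0.713). Counting error alone is large here, since 2 reads have an exact 95% Poisson interval of 0.242 to 7.22 reads. Such intervals cover counting error only, as the method has no molecular identifiers. Without WT mouse 1, the library with the female-biased transcripts, the genotypes did not overlap in *Timd4* and the log2 fold change was -1.47 (edgeR adjusted p = 0.529, and 0.529 to 0.964 over all alternatives tried).

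*Marco* encodes a class A scavenger receptor for bacteria and modified lipoproteins, present on part of the Kupffer cells and on macrophages of the splenic marginal zone and the lung. It lies on chromosome 1, from 120474538 to 120505024 on the minus strand (ENSMUSG00000026390.7), and its reads fell on 1 transcript of 17 exons. *Marco* had 14, 36 and 579 reads in WT mice 1, 2 and 3, and 34, 41 and 12 reads in KO mice 1, 2 and 3. As CPM these are 1.19, 3.27 and 42.8 in WT mice and 3.11, 4.34 and 1.16 in KO mice. WT mouse 3 stood alone, at 19.2 times the mean of WT mice 1 and 2, and the other 5 livers overlapped between 1.16 and 4.34 CPM. The 579 reads have a Poisson interval of 533 to 628. Among the 11376 genes with at least 30 reads in some liver and a read in another, *Marco* ranked 1 by the ratio of WT mouse 3 to the highest other liver.

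The mean of *Marco* was 15.8 ± 23.5 CPM in WT and 2.87 ± 1.61 CPM in KO liver, and its log2 fold change of -2.47 (SE 1.12, 95% interval -5.01 to 0.07) was not called (edgeR adjusted p = 0.455). The sign rested on WT mouse 3, without which the log2 fold change was 0.37 (edgeR adjusted p = 0.901). When edgeR was run with no filter on low counts, *Marco* was called lower in KO liver (log2 fold change -2.46, adjusted p = 9.07e-15), in a fit that called 633 of 27881 genes (2.27% of those tested), with 0.775% of all genes lower. Over all alternatives tried its adjusted p ran from 9.07e-15 to 0.901. The 579 reads are the same in that fit. The other 9 genes did not stand out to this extent in WT mouse 3. Their ratio of WT mouse 3 to the highest other liver was 1.68 in *Timd4*, 1.45 in *Lyz2* and 0.674 to 1.06 in the remaining 7 genes.

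Among the secreted proteins, *Cd5l* encodes CD5L (also called AIM), a scavenger receptor cysteine-rich protein that tissue macrophages release into blood. The gene lies on chromosome 3, from 87357881 to 87371073 on the plus strand (ENSMUSG00000015854.7). *Cd5l* measured 12.9, 11.7 and 34.3 CPM in WT mice and 35.7, 9.43 and 22.0 CPM in KO mice. WT mouse 3 and KO mouse 1 were nearly equal at the top, and KO mouse 2 was lowest. The means of 19.6 ± 12.7 CPM in WT and 22.4 ± 13.1 CPM in KO liver differed by far less than the spread between mice (log2 fold change 0.19, SE 0.51, edgeR adjusted p = 0.932).

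*C1qa* encodes the A chain of C1q, the first component of the classical complement pathway, which is made mainly by macrophages. It lies on chromosome 4, from 136895917 to 136898803 on the minus strand (ENSMUSG00000036887.5), beside *C1qb* and *C1qc*, the genes for the other 2 chains. In WT mice *C1qa* measured 8.38, 13.2 and 14.7 CPM, and in KO mice 21.1, 7.74 and 19.5 CPM. KO mice 1 and 3 were above all WT mice and KO mouse 2 below them, and the log2 fold change was 0.41 (SE 0.37, edgeR adjusted p = 0.724) between means of 12.1 ± 3.32 CPM and 16.1 ± 7.28 CPM. Without KO mouse 2 the genotypes did not overlap, with a log2 fold change of 0.74 (edgeR adjusted p = 0.557, and 0.557 to 0.945 over all alternatives tried). *C1qb* had a log2 fold change of 0.35 (SE 0.38, edgeR adjusted p = 0.783) and *C1qc* one of 0.69 (SE 0.37, edgeR adjusted p = 0.542). By the root mean square difference of centred log2 CPM over the 6 livers, *C1qb* was the gene ranked 120 (0.33) and *C1qc* the gene ranked 193 (0.36) nearest to *C1qa*, of 12523 genes with a median difference of 0.63.

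*Lyz2* encodes lysozyme 2 of macrophages, monocytes and neutrophils, and was the most abundant of the 10 genes. It lies on chromosome 10, from 117277331 to 117282321 on the minus strand (ENSMUSG00000069516.8), next to its paralog *Lyz1*. *Lyz2* measured 54.2, 58.6 and 158.9 CPM in WT mice and 109.9, 52.8 and 91.7 CPM in KO mice. WT mouse 3 was highest and KO mouse 2 lowest. The means of 90.6 ± 59.2 CPM in WT and 84.8 ± 29.2 CPM in KO liver did not differ beyond that spread (log2 fold change -0.10, SE 0.42, edgeR adjusted p = 0.956). *Lyz2* shares 32.8% of its words of 31 bases with *Lyz1*, so reads can be split between both genes, but *Lyz1* received 1, 6 and 34 reads in WT and 3, 1 and 4 reads in KO libraries, where *Lyz2* received 498 to 2148.

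Among the genes that macrophages share more widely, *Csf1r* encodes the receptor for CSF1 and IL-34, on which macrophage survival depends. *Csf1r* (ENSMUSG00000024621.16) measured 11.3, 11.9 and 23.2 CPM in WT mice and 22.2, 7.95 and 17.4 CPM in KO mice. WT mouse 3 and KO mouse 1 were again close together at the top. Its means were 15.4 ± 6.69 CPM in WT and 15.8 ± 7.24 CPM in KO liver, and the log2 fold change of 0.04 (SE 0.39, 95% interval -0.85 to 0.93, edgeR adjusted p = 0.983) was the closest to 0 of the 10 genes. *Csf1r* shares 14.9% of its words with other genes, nearly all with *Hmgxb3* on the opposite strand. As the libraries do not keep the strand, reads from the overlap cannot be told apart, and *Hmgxb3* itself received 118, 85 and 91 reads in WT and 41, 76 and 143 reads in KO libraries. The other 8 genes shared no such word with another gene.

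*Adgre1* encodes F4/80, the adhesion receptor by which mouse macrophages are usually stained. It lies on chromosome 17, from 57358691 to 57483527 on the plus strand (ENSMUSG00000004730.15). *Adgre1* measured 1.02, 1.81 and 6.14 CPM in WT mice and 5.77, 1.59 and 3.08 CPM in KO mice. It had the widest range of the 10 genes after *Marco* and *Timd4*, 6.04-fold between WT mouse 3 and WT mouse 1, and a log2 fold change of 0.21 (SE 0.68, edgeR adjusted p = 0.945).

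*Cd68* encodes macrosialin, a glycoprotein of late endosomes and lysosomes. It lies on chromosome 11, from 69664213 to 69666153 on the minus strand (ENSMUSG00000018774.13). *Cd68* measured 4.32, 2.72 and 5.92 CPM in WT mice and 6.14, 1.80 and 3.76 CPM in KO mice. KO mouse 1 and WT mouse 3 were highest and KO mouse 2 lowest, and the log2 fold change was -0.15 (SE 0.47, edgeR adjusted p = 0.945). The sign depended on transcript length. With offsets for the average transcript length the log2 fold change was 0.23 by edgeR and 0.24 by DESeq2, still far from the threshold. In KO mice 1 and 3, 16.4% and 27.2% of the reads of *Cd68* were assigned to a processed transcript of 612 bases, against 1230 bases for the main transcript, and in the other livers none were.

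**Figure D2:**
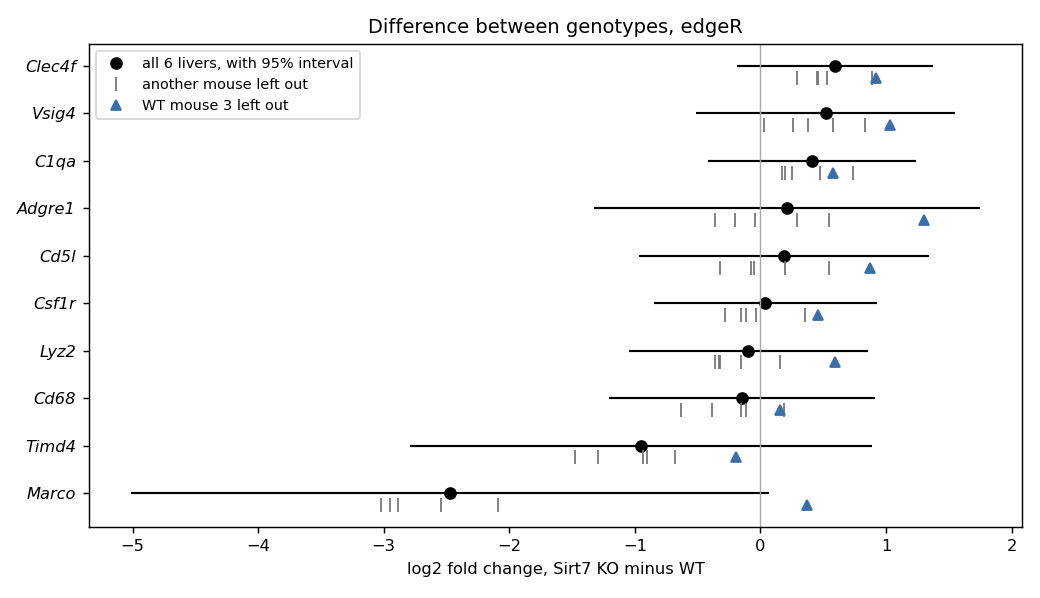
Log2 fold change of each gene by edgeR (*Sirt7* KO minus WT, horizontal axis) with its 95% interval over all 6 livers (black), after leaving out WT mouse 3 (blue triangle), and after leaving out each other mouse (grey ticks). All 10 intervals hold 0, and *Marco* moves from -2.47 to 0.37 without WT mouse 3.

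Levels of different genes were compared as TPM, in which the authors' quantification scales reads to transcript length and to a total per library. *Lyz2* was the highest in every liver, with a median of 58.8 TPM and a range of 40.9 to 123 TPM over the 6 livers that did not overlap that of the next gene. The order by median TPM went on with *C1qa* (14.4), *Clec4f* (12.8), *Cd5l* (8.37), *Vsig4* (6.34), *Cd68* (4.32), *Csf1r* (3.04), *Marco* (1.496), *Adgre1* (0.677) and *Timd4* (0.378). After *Lyz2*, the ranges of every pair of neighbours in this order overlapped. In 5 livers *Marco* lay between rank 6 and 9 with 0.576 to 2.14 TPM, and in WT mouse 3 it ranked second with 21.1 TPM. The 10 genes summed to 83.6, 80.1 and 211 TPM in WT mice and to 158, 75.2 and 139 TPM in KO mice, and *Lyz2* made up 50.5% to 58.4% of this sum in each liver. *Marco* made up 10.01% of it in WT mouse 3 and 0.416% to 2.85% elsewhere.

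**Figure D3:**
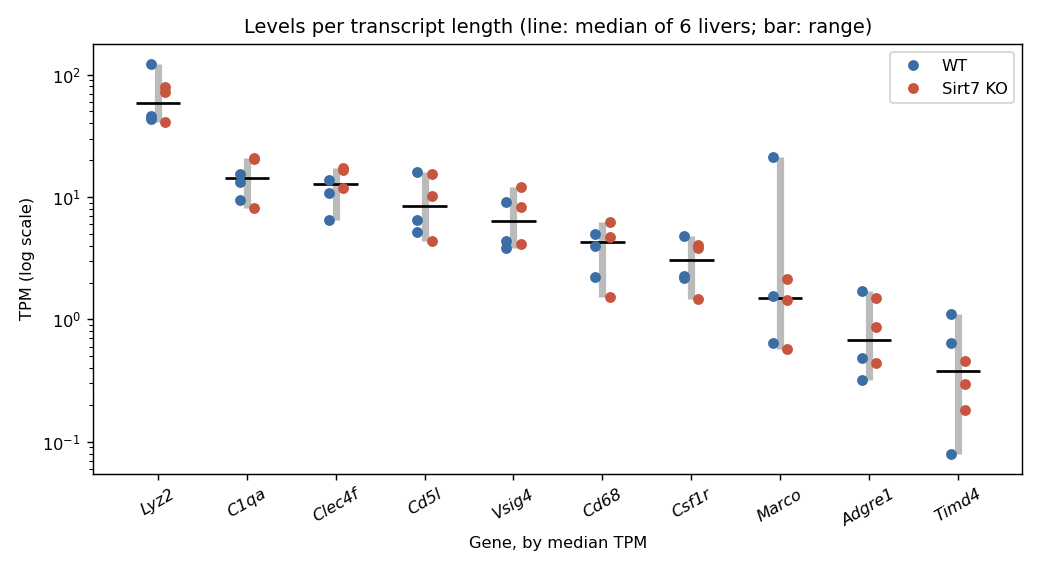
Level of each gene per transcript length, in TPM on a log axis, in WT (blue) and *Sirt7* KO (red) livers, ordered by the median of the 6 livers (line), with the range as a grey bar. *Lyz2* lies above the rest at a median of 58.8 TPM, neighbours after it overlap, and a single WT liver carries *Marco* at 21.1 TPM.

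Reads of *Cd5l*, *Timd4*, *C1qa* and *Lyz2* have a single annotated transcript to fall on. In *Clec4f*, 18.9, 0 and 13.1 reads in WT mice and 0, 24.4 and 17.4 reads in KO mice were assigned to a short processed transcript of 608 bases. The main coding transcript of *Clec4f* held 94.98% ± 5.43 of its reads (SD over 6 livers) but 79.0% ± 20.1 of its TPM, as short transcripts weigh more per length, so the TPM of *Clec4f* is less certain than its CPM. In *Csf1r* the coding transcript of 4701 bases had 48.1% of the reads in WT mouse 3 and 26.5% in KO mouse 3, against 82.6% to 100% in the other 4 livers. In *Adgre1*, WT mouse 1 had all its 12 reads on the coding transcript with 23 exons, and WT mouse 2 and KO mice 1 and 2 had all theirs on that with 22 exons. Isoform shares of genes with few single-end reads are estimates with a large error, and no difference between genotypes was tested in them.

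Most of the 10 genes rose and fell together across livers within each genotype. Behind WT mouse 3, the highest WT liver in each, WT mouse 2 was next in 7 genes and WT mouse 1 in 3. Both WT mouse 3 as the highest WT liver and the KO order mouse 1, mouse 3, mouse 2 were found in 8 of 10 genes and in 6.74% of all tested genes. The exceptions were *Timd4*, highest in KO mouse 3, and *Marco*, highest in KO mouse 2. Over all 6 livers, the highest value was in WT mouse 3 for 5 genes and in KO mouse 1 for the other 5. The lowest was in KO mouse 2 for 5 genes, in WT mouse 1 for 3, and in WT mouse 2 and KO mouse 3 for 1 gene each. Library depth ran in the same orders as most of these genes. WT mice 3, 2 and 1 had 13424776, 11281715 and 10608035 reads on transcripts, and KO mice 1, 3 and 2 had 11107388, 10964176 and 9994860. CPM is scaled to depth, and a part of depth in the profile was not tested.

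Averaged over the 10 genes, the centred log2 CPM (each gene minus its own mean over the 6 livers) came to -0.82, -0.27 and 1.05 in WT mice and 0.60, -0.67 and 0.10 in KO mice. Leaving out *Marco* made it -0.73, -0.27 and 0.78 in WT mice and 0.70, -0.77 and 0.29 in KO mice. The spread among mice of the same genotype was thus larger than the difference between the genotype means of this profile, 0.02 with *Marco* and 0.15 without it. The SD of log2 CPM over the 6 livers ran from 0.60 in *C1qa* to 1.89 in *Marco*, and the median SD of the 10 genes was larger than that of 85.7% of tested genes, whose median SD was 0.33. When the mean profile of the other macrophage genes (*Marco* left out of that mean) was subtracted from each gene, the SD became smaller in 10 of 10 genes. The share of all tested genes whose SD would also become smaller was not computed, so this count has no background. The SD went from 0.61 to 0.20 in *Csf1r*, from 0.65 to 0.22 in *Lyz2*, from 0.73 to 0.25 in *Vsig4* and from 0.82 to 0.28 in *Cd5l*, but only from 1.89 to 1.67 in *Marco*. What was left of the difference between genotypes, KO minus WT on the log2 scale, is given as a description without a test. It was 0.44 in *Clec4f*, 0.38 in *Vsig4*, 0.31 in *Adgre1*, 0.19 in *C1qa* and 0.03 in *Cd5l*. In the rest it was -1.28 in *Marco*, -0.60 in *Timd4*, -0.44 in *Cd68*, -0.17 in *Csf1r* and -0.14 in *Lyz2*.

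**Figure D4:**
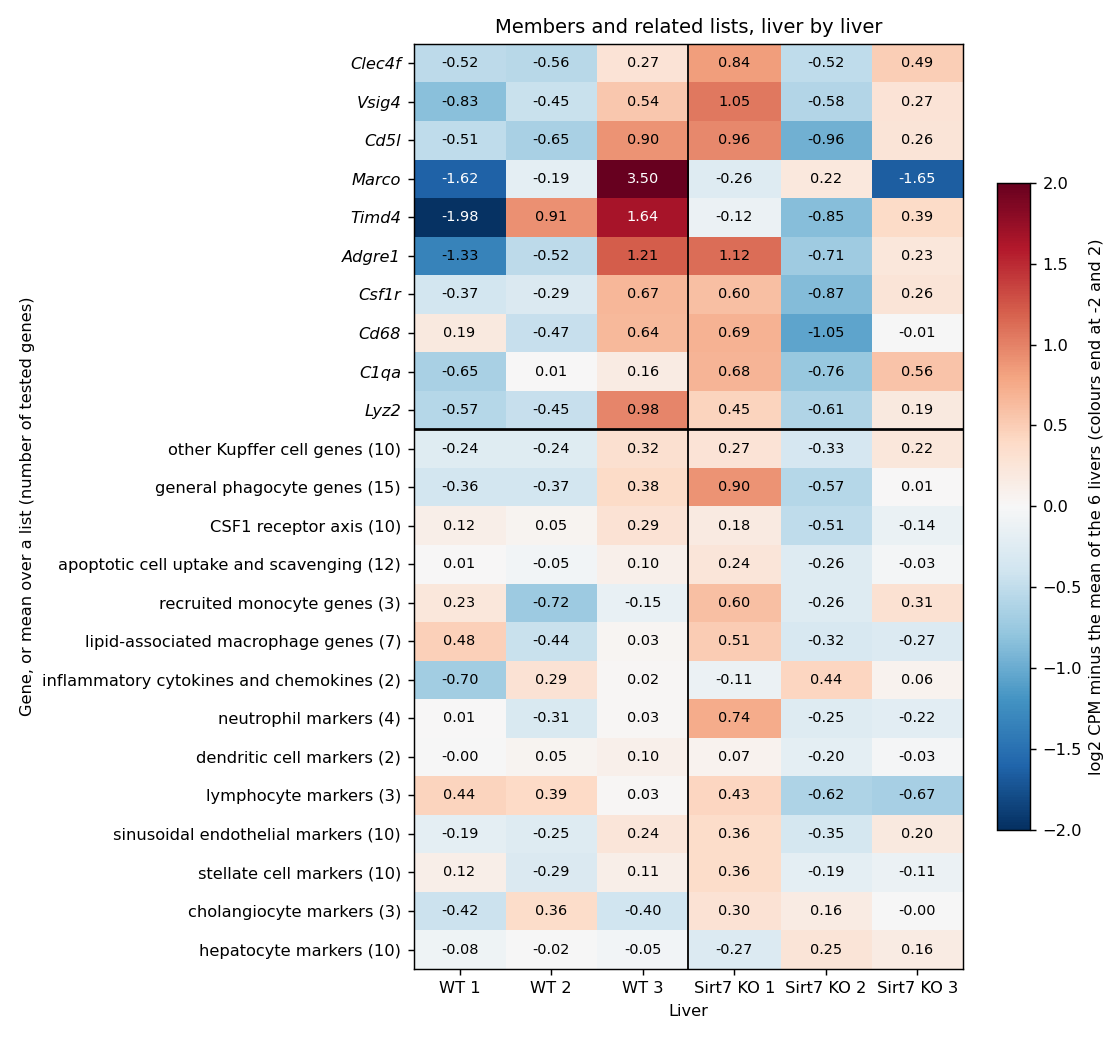
Log2 CPM of each gene minus its mean over the 6 livers (rows above the line), and the mean of the same quantity over the tested genes of 14 related lists (rows below), for each liver (columns); red is above and blue below the mean, and the colours end at -2 and 2. The 10 genes are mostly red in WT mouse 3 and KO mouse 1 and blue in KO mouse 2, and the general phagocyte row repeats this with 0.38, 0.90 and -0.57.

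Genes with a similar liver profile were looked up among all other tested genes. The 5 tested genes nearest to the mean profile of the 10, by root mean square difference over the 6 livers, were *Cfp* (0.13), *Ifi204* (0.18), *Soat1* (0.19), *Wfdc17* (0.23) and *Afap1l1* (0.24). *Cfp* encodes properdin, which stabilises the alternative complement convertase, *Ifi204* an interferon-inducible protein and *Soat1* the enzyme that esterifies cholesterol in macrophages. *Cfp* measured 4.15, 5.72 and 13.02 CPM in WT mice and 12.5, 4.87 and 7.32 CPM in KO mice. *Ifi204*, *Soat1* and *Afap1l1* were low, at means of 1.38, 1.88 and 1.85 CPM over the 6 livers. As these 5 were chosen for nearness to the profile, their likeness to it was fixed by the choice. The profile had little difference between genotypes, so their own genotype differences were fixed as well and are not given.

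Of 12 other genes known from Kupffer cells, 10 were tested and 0 were called, with a median log2 fold change of 0.10. At an unadjusted p under 0.05, 2 were higher and 2 lower, against 6.54% and 4.78% of all genes. The 4 most abundant were not among those most restricted to Kupffer cells in liver. *C6*, which encodes a component of the membrane attack complex that hepatocytes also make, measured 29.0, 88.9 and 78.1 CPM in WT and 159, 180 and 221 CPM in KO mice. All KO mice lay above all WT mice, with a log2 fold change of 1.51 (SE 0.36, edgeR adjusted p = 0.174). *Id3*, which encodes an inhibitor of DNA binding needed for Kupffer cell development, measured 253, 70.5 and 59.8 CPM in WT and 46.6, 29.7 and 41.3 CPM in KO mice. All KO mice lay below, with WT mouse 1 far above the rest, and the log2 fold change was -1.70 (SE 0.51, edgeR adjusted p = 0.251). *Slc40a1*, the iron exporter ferroportin, had -0.69 (SE 0.25, edgeR adjusted p = 0.341), and *Nr1h3*, the nuclear receptor LXR alpha, 0.08 (SE 0.14, edgeR adjusted p = 0.881). Liver orders varied within this list. WT mouse 3 was the highest WT liver in 5 of the 10 tested genes (32.3% of all tested genes). The KO order mouse 1, mouse 3, mouse 2 was found in 4 (18.7%). *Id3* and *Nr1h3* were lowest in WT mouse 3 among WT livers, *Slc40a1* was highest in WT mouse 1 and *C6* in WT mouse 2. The genes *Folr2*, *Cd163* and *Siglec1*, chosen after their values were seen, are surface receptors of tissue macrophages. *Folr2* had 17, 14 and 29 reads in WT and 48, 23 and 36 in KO libraries, a log2 fold change of 1.08 (SE 0.40, edgeR adjusted p = 0.357). These reads overlap between the genotypes, but in CPM all KO mice lay above all WT mice in *Folr2*. The lowest KO value was 2.44 CPM in KO mouse 2, and the highest WT value was 2.15 CPM in WT mouse 3. *Cd163* had 4, 15 and 69 reads in WT and 13, 6 and 25 in KO libraries, a log2 fold change of -0.69 (SE 0.85, edgeR adjusted p = 0.815). *Siglec1*, which was not tested, had 4, 6 and 30 in WT and 38, 3 and 9 in KO libraries. The remaining tested genes, named after their values were seen to complete the list, overlapped between genotypes. Their log2 fold changes were 0.13 in *Clec1b*, -0.10 in *Fcna*, 0.48 in *Spic* and 0.20 in *Hmox1*. In this list all KO mice lay above in 2 of 10 tested genes and below in 1, against 8.74% and 8.09% of all tested genes.

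Of 16 general phagocyte genes, 15 were tested and 0 were called. The log2 fold change was above 0 in 13 of the 15 (49.3% of all tested genes), with a median of 0.34. At an unadjusted p under 0.05 by edgeR 1 gene was higher, against 6.54% of all tested genes. All KO mice lay above all WT mice in 0 of the 15, and below them in 0. *Ctss*, which encodes the lysosomal protease cathepsin S, had a log2 fold change of 0.43 (SE 0.36, edgeR adjusted p = 0.711), and *Laptm5*, a lysosomal membrane protein of blood cells, one of 0.16 (SE 0.41, edgeR adjusted p = 0.926). The mean centred log2 CPM of the 15 genes was -0.36, -0.37 and 0.38 in WT mice and 0.90, -0.57 and 0.01 in KO mice, with KO mouse 1 the highest. WT mouse 3 was the highest WT liver in 12 of the 15 (32.3% of all tested genes). The KO order mouse 1, mouse 3, mouse 2 was found in 10 (18.7%). Both were found in 10 of the 15, against 6.74% of all tested genes, so the 13 signs are not 13 separate observations.

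In the CSF1 receptor axis, 10 of 10 genes for ligands, macrophage transcription factors and related receptors were tested. Of these 0 were called, with a median log2 fold change of -0.07. At an unadjusted p under 0.05 by edgeR 1 gene was lower, against 4.78% of all tested genes. Among the more abundant were *Cebpb*, a factor that hepatocytes also use (-1.60, SE 0.59, edgeR adjusted p = 0.356), *Tgfbr2*, a receptor for TGF-beta (0.31, SE 0.30, edgeR adjusted p = 0.746), and *Maf* (-0.39, SE 0.25, edgeR adjusted p = 0.6). The ligand *Csf1* had a log2 fold change of -0.05 (SE 0.29), the ligand *Il34* one of -0.55 (SE 0.58) and *Spi1*, the gene of PU.1, one of -0.09 (SE 0.58). These 3 were chosen after their values were seen, for their place beside the receptor, and none passed the test (edgeR adjusted p of 0.971, 0.776 and 0.971).

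Of 12 genes for the uptake of dying cells and lipoproteins, 12 were tested, 0 were called and 0 had an unadjusted p under 0.05 by edgeR, with a median log2 fold change of 0.11. *Lrp1*, *Scarb1*, *Cd36* and *Pros1*, the most abundant, are also expressed by hepatocytes or endothelium. *Lrp1*, an endocytic receptor, had all KO mice above all WT mice (489 to 534 CPM against 385 to 486 CPM), with a log2 fold change of 0.28 (SE 0.15, edgeR adjusted p = 0.546). The fatty acid and lipoprotein receptor *Cd36* measured 62.7, 83.7 and 56.5 CPM in WT and 54.9, 46.6 and 14.4 CPM in KO mice. All KO mice lay below all WT mice, but the log2 fold change of -0.81 (SE 0.41) was not significant (edgeR adjusted p = 0.503). Of all tested genes, 8.74% had all KO mice above and 8.09% had all KO mice below.

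Genes of newly recruited monocytes were near the limit of detection. Of 10 such genes only 3 passed the filter, of which 0 were called by edgeR. At an unadjusted p under 0.05 by edgeR 1 was higher, against 6.54% of all tested genes. The summed level of all 10 was 6.21 to 9.82 CPM in WT and 6.45 to 11.9 CPM in KO mice. *Plac8* had a log2 fold change of 0.12 (SE 0.33, edgeR adjusted p = 0.934), and *Chil3*, which encodes a chitinase-like protein, one of -0.33 (SE 0.77, edgeR adjusted p = 0.915). Inflammatory cytokines and chemokines were rarer still. Of 11 genes, 2 were tested (*Il18* and *Cxcl10*), *Il6* had no read in any library, and 0 were called or had an unadjusted p under 0.05 by edgeR.

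Genes of lipid-associated macrophages, described in fatty and scarred liver, were tested in 7 of 7 cases and 0 were called, with a median log2 fold change of -0.24. *Spp1*, *Cd9* and *Lpl* had log2 fold changes of -0.04, -0.24 and -0.30 (edgeR adjusted p of 0.958, 0.801 and 0.817). *Fabp5*, which encodes a fatty acid-binding protein that is not limited to macrophages, came closest to the threshold of all genes on these lists. It had 27, 12 and 38 reads in WT and 190, 122 and 95 reads in KO libraries. All KO mice lay above all WT mice, with a log2 fold change of 2.65 (SE 0.38) and an edgeR adjusted p of 0.0553. Its liver profile differed from that of the 10 genes, in that WT mouse 3 at 2.81 CPM was far below KO mouse 2 at 12.9 CPM.

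Markers of other cell types were measured beside the shared liver profile. The 10 sinusoidal endothelial markers had a mean centred log2 CPM of -0.19, -0.25 and 0.24 in WT mice and 0.36, -0.35 and 0.20 in KO mice, which has the same sign as the macrophage profile in all 6 livers and a smaller size in every liver but KO mouse 3. Their summed level was 82.8 to 110 CPM in WT and 82.2 to 120 CPM in KO mice. The 10 stellate cell markers measured 0.12, -0.29 and 0.11 in WT mice and 0.36, -0.19 and -0.11 in KO mice, and the 10 hepatocyte markers -0.08, -0.02 and -0.05 in WT mice and -0.27, 0.25 and 0.16 in KO mice. WT mouse 3 was the highest WT liver in 7 of 10 endothelial and 6 of 10 stellate markers (32.3% of all tested genes). The KO order mouse 1, mouse 3, mouse 2 was found in 7 endothelial and 5 stellate markers (18.7% of all tested genes). Both were found in 4 endothelial, 4 stellate and 0 hepatocyte markers, against 6.74% of all tested genes. In none of these 3 lists was a gene called or past an unadjusted p of 0.05 by edgeR. The median log2 fold change was 0.12 for endothelial, -0.03 for stellate and 0.13 for hepatocyte markers.

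Neutrophil markers, which could share *Lyz2*, summed to 4.35 to 6.35 CPM in WT and 4.05 to 9.89 CPM in KO mice, highest in KO mouse 1, and *Ly6g* and *Camp* had no read in any library. Only 4 of the 9 were tested and 0 were called (median log2 fold change 0.51). Lymphocyte markers summed to 8.35 to 13.4 CPM in WT and 4.45 to 9.25 CPM in KO mice, and 3 of 11 were tested (-0.33). Of 8 dendritic cell markers only *Bst2* and *Zbtb46* were tested (-0.10), with a summed level of 97.3 to 109 CPM in WT and 116 to 134 CPM in KO mice, nearly all of it *Bst2*, which is not limited to dendritic cells. Cholangiocyte markers summed to 6.18 to 9.44 CPM in WT and 7.80 to 13.1 CPM in KO mice, with 3 of 6 tested (0.59). In these 4 lists also 0 genes were called or had an unadjusted p under 0.05 by edgeR. The part of any of these cell types in the shared profile of the macrophage genes was not tested.

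The comparison of genotypes depended on single mice. Leaving out WT mouse 3 moved the median log2 fold change of the 10 genes from 0.11 to 0.59, and leaving out KO mouse 1 moved it to -0.32. It was 0.45 without KO mouse 2 and -0.10 without WT mouse 2. Without WT mouse 1, the library with the female-biased transcripts, it was -0.15, and without KO mouse 3, the library with the kidney transcripts, it was 0.08. In each of these fits 0 of 10 genes were called. At an unadjusted p under 0.05 there were 2 genes without WT mouse 1 (*Marco* and *Timd4*, against 9.20% of all genes), 1 without WT mouse 2 (*Marco*, 8.95%), 1 without WT mouse 3 (*Clec4f*, 9.82%), 2 without KO mouse 2 (*Clec4f* and *C1qa*, 7.59%), and 0 without KO mouse 1 (17.1%) or KO mouse 3 (8.19%). The number of genes whose genotypes did not overlap was 1 without WT mouse 1 (*Timd4*, against 25.6% of all genes), 1 without WT mouse 3 (*Clec4f*, 27.5%) and 2 without KO mouse 2 (*Clec4f* and *C1qa*, 23.9%). It was 0 without WT mouse 2 (26.3%), KO mouse 1 (36.8%) or KO mouse 3 (25.4%).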

How the data were processed

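Liver RNA of 3 WT and 3 *Sirt7* KO mice was grouped by the genotype in the sample labels. The authors trimmed reads with Trim Galore 0.6.5 and quantified them on GRCm38 transcripts with Salmon 1.2.1 (versions from the submitters' processing notes); the annotation release is not given in the sources used here. They deposited estimated counts, which are not normalized, and TPM, scaled to effective length and to a total per library. Estimated counts were summed over the genes of GENCODE M21 (139172 of 140992 transcripts matched by version, 619 by another version; 1201 had no gene, with 0.303% to 0.492% of reads) and rounded. Genotypes were compared with edgeR 4.0.16 in R 4.3.3 (quasi-likelihood test, TMM factors, filterByExpr with a minimum count of 10) and Benjamini-Hochberg adjustment over the 12524 tested genes. DESeq2 1.42.0 was an alternative. Levels in CPM use TMM library sizes, and centred profiles use log2 CPM. Tests were checked on counts drawn with known differences. The biological coefficient of variation was 26.4%, and the labels say only that mice are biological replicates. Libraries of the same genotype differed by more than sampling noise (chi-square per gene of at least 16.9). The depth of 9994860 to 13424776 reads leaves genes with few reads imprecise.

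The 10 genes and the related lists were chosen with earlier results of these data known. Named besides the 10 were *Sirt7*, up to 4 tested genes of highest mean count from each list (none was called), the 5 nearest profiles, and *C1qb* and *C1qc*. The text marks those picked with their values known, and some genes that this rule names are not reported here. *Hmgxb3* and *Lyz1* are named for the words of 31 bases they share. Promoters are from RefSeq, and 3 of the 10 genes had none in the table used. RLE, upper quartile and total count scaling, no filter or a mean of at least 50 counts, transcript length offsets, DESeq2, a block for the replicate number, shares of TPM, other thresholds and the omission of each mouse were tried as alternatives; the overlap with each mouse left out was added after seeing the data.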

Additional observations from a re-analysis of the deposited data

How the results depend on the processing

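Of the 10 genes, 0 were called under each alternative run except the fit without a low count filter, where 1 (*Marco*) was. An unadjusted p under 0.05 was also reached by *Marco* with total counts and by *Clec4f* with DESeq2 and length offsets. Without the filter it was reached by *Clec4f*, *Vsig4* and *Marco*. Over all genes this limit was passed by 1513 of 12524 with total counts and by 1496 of 27862 with DESeq2 and length offsets. Without the filter 2362 of 27881 genes passed it. Over all genes, 1 was called in the main analysis, 2 with total counts, 2 with length offsets, 41 with the replicate number as a block, 242 by DESeq2 with length offsets, 256 by DESeq2, 633 without the filter and 925 at an unadjusted p under 0.05 with the fold change. Leaving out 1 mouse gave 0 to 252, with 252 without KO mouse 1 (165 higher and 87 lower). The cause was not tested. The sign of the log2 fold change turned in *Csf1r* with total counts (-0.054), in *Cd68* with length offsets (0.23 by edgeR and 0.24 by DESeq2) and in *Lyz2* with the replicate number as a block (0.018). Leaving out 1 mouse gave -0.32 to 0.87 in *Cd5l*, -0.36 to 1.304 in *Adgre1*, -0.28 to 0.46 in *Csf1r*, -0.63 to 0.19 in *Cd68*, -0.37 to 0.59 in *Lyz2* and -3.02 to 0.37 in *Marco*. It kept the sign in *Clec4f* (0.29 to 0.92), *Vsig4* (0.03 to 1.03), *C1qa* (0.17 to 0.74) and *Timd4* (-1.47 to -0.19). The count of the 10 genes whose genotypes did not overlap was 0 to 2 when 1 mouse was left out. The share of reads on the main transcript was 94.98% in *Clec4f* and 99.8% in *Vsig4*, and by TPM 79.0% and 98.5%. *Timd4*, *Adgre1* and *Cd68* could not be fitted with a mean of at least 50 counts. Total counts moved the median log2 fold change of all genes to -0.11, from -0.01.

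The labels number the mice within each genotype. They do not say whether same-numbered mice were paired. Deviations of same-numbered mice from their genotype means correlated by 0.067, 0.058 and -0.055. With 1 mouse per number in each genotype, such correlations cannot decide whether the mice were paired. With the replicate number as a block, 0 of the 10 genes were called and the log2 fold change of *Marco* was -1.003 (edgeR adjusted p = 0.806). With 3 mice in each group and 2 to 2148 reads per gene and library, small differences were not detectable. The 95% intervals are not adjusted for the number of genes tested, so a gene could miss the threshold although its interval left out 0. *Fabp5*, with an interval of 1.80 to 3.51, was not called (edgeR adjusted p = 0.0553).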
